A study of Mus musculus with 12 samples.

Results

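Integrins are the αβ heterodimers through which cells hold the extracellular matrix or other cells. Talins and kindlins bind the β tail and switch the receptor on, the complex of integrin-linked kinase, PINCH and parvin ties it to actin, and paxillin, focal adhesion kinase and p130Cas pass the signal on. In subcutaneous fat the stromal integrins sit on preadipocytes, fat cells, vessels and epithelium, while a separate set with restricted α and β chains is carried by leukocytes. The levels of 42 such genes, chosen by symbol, were followed in inguinal white adipose tissue (iWAT) of mice, and all 42 passed the filter on low values, as did 15413 of the 24091 genes in the files. They comprised 25 integrin subunits (17 α and 8 β) and 17 adaptors, among which the hyaluronan receptor Cd44 is counted. Of the integrin subunits 7 were set apart as leukocyte integrins (Itgal, Itgam, Itgax, Itgae, Itga4, Itgb2 and Itgb7) from 18 stromal or other ones, and 2 adaptors of blood cells, the kindlin Fermt3 and the parvin Parvg, from 15 others.

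RNA of whole iWAT was sequenced from 12 C57BL/6 mice, 1 library a mouse, in 4 groups of 3. The mutant, bBMKO, carries Prx1-Cre and 2 floxed Bmal1 alleles (Bmal1 fl/fl); its littermate control, bBMCtr, has the same floxed alleles without the Cre. Prx1-Cre acts in subcutaneous progenitors and fat cells, so that leukocytes, endothelium and epithelium in the piece of tissue are not its stated targets. Each genotype was sampled at ambient temperature (22 °C in the series record, 21 °C in the methods) and after 2 weeks at 10 °C. The age is given as 6 weeks in the study's legends and as 10 to 12 weeks for cold acclimation in its methods, and the legends of its RNA-seq panels name both male and female mice. Levels are CPM, counts scaled to the size of each library, and per-library values run through replicates 1, 2 and 3 of a group.

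Libraries held 17887795 to 21436282 counts. Arntl, which encodes Bmal1, had 13.5 to 19.6 CPM in the 6 bBMKO libraries and 3.77 to 10.7 CPM in the 6 bBMCtr libraries; its count spans the whole gene, exons outside the floxed stretch included, and therefore checks no label. Nr1d1, a direct target of Bmal1, had 58.6 to 80.9 CPM in bBMKO and 119 to 225 CPM in bBMCtr. Xist lay at 0.526 to 2.99 CPM in the cold libraries and at 1310 to 1520 CPM in the ambient ones, and Ddx3y, on the Y chromosome, at 97.3 to 128 CPM in the cold and at 0 to 4.53 CPM at ambient temperature, so that temperature and sex cannot be told apart here. Mean log2 CPM of 16 lymphocyte markers was 0.86, 1.48 and 4.76 in ambient bBMKO, 6.52, 5.19 and 0.89 in ambient bBMCtr, 1.80, 0.18 and 0.86 in cold bBMKO, and 5.96, 6.36 and 5.64 in cold bBMCtr. None of these markers was at 0 in any library. All 10 fat cell markers were detected, with a mean log2 CPM of 9.91 to 11.37 across the libraries.

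Ordered by FPKM, which corrects for gene length, the most abundant members were the actin-binding tensin Tns1, with a mean of 113 FPKM over the 12 libraries, and Itgb1, the β chain shared by most matrix receptors, with 78.1 FPKM. The integrin-linked kinase gene Ilk followed with 49.1 FPKM, kindlin-2 (Fermt2) with 35.4 FPKM and the laminin receptor chain Itga7 with 34.4 FPKM. At the low end, the epithelial chain Itgb6 averaged 0.232 FPKM. Itgb1 moved little, its highest library standing 1.26-fold over its lowest in CPM, whereas Itgal spanned 15.9-fold.

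**Figure D1:**
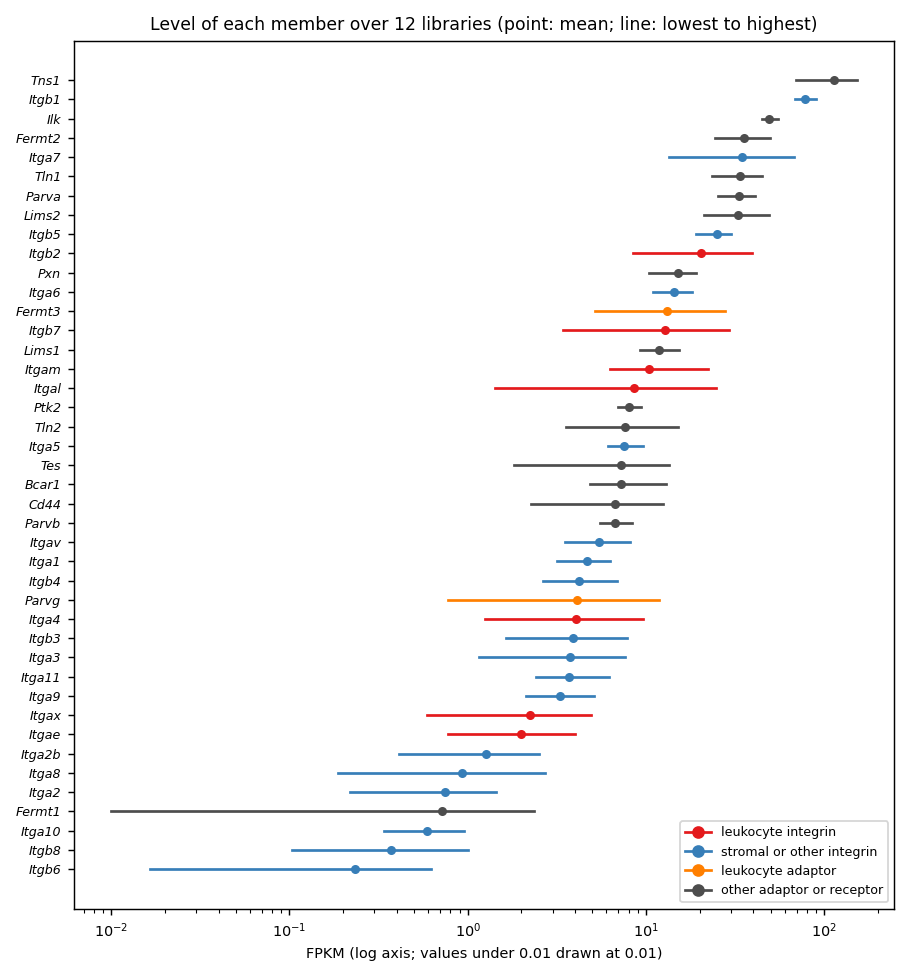
FPKM of each of the 42 members on a log axis, ordered by the mean; points are means and lines run from the lowest to the highest of 12 libraries. Tns1 leads with 113 FPKM and Itgb6 is lowest with 0.232 FPKM. Lines are long for leukocyte members such as Itgal (red) and Parvg (orange), and also for Fermt1, Itgb6 and Itga8. That of Itgb1 is short.

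The stretch of 250 bases before the transcription start was read for members found in the RefSeq promoter table (GRCm38.p6, the mm10 coordinates), which held 30 of the 42 members in 37 promoters. These are shown for 4 members described further on: Cd44 and Tes, which were lower in bBMKO, Fermt2, which was higher in cold bBMKO, and Ilk, which passed no test. Capitals mark motifs that were searched on both strands: the E-box CACGTG and E-prime box CACGTT read by clock factors, and the CArG box read by SRF; a capital run AACGTG is the E-prime box on the opposite strand.
Cd44, chr2:102901666-102901915, minus strand: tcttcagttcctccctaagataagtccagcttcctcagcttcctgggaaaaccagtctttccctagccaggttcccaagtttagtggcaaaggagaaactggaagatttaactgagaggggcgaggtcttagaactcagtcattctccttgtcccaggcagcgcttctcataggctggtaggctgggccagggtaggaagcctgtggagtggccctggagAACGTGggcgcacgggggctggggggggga
Tes, chr6:17064899-17065148, plus strand: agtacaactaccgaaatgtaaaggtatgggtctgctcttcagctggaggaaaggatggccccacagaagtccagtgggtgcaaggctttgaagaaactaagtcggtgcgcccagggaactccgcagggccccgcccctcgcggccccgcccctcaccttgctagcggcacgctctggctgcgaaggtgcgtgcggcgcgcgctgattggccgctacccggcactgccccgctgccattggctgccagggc
Fermt2, chr14:45530066-45530315, minus strand: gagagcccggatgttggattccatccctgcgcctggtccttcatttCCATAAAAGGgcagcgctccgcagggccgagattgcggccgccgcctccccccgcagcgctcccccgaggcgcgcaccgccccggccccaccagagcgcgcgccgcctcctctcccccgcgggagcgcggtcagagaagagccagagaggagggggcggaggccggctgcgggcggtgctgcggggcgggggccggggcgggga
Ilk, chr7:105736340-105736589, plus strand: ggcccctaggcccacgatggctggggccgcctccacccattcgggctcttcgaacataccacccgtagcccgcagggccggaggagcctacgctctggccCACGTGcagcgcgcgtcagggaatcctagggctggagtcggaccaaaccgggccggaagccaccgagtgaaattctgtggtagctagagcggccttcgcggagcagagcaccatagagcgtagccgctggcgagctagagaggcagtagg
The E-box was present in 2 of the 37 member promoters (5.41%), those of Ilk and an alternative start of Lims1, against 6.02% of all 32851 promoters of this length. The E-prime box was present in 2 (5.41%), Cd44 and an alternative start of Itga9, against 3.85% of all, and the CArG box in 2 (5.41%), Fermt2 and an alternative start of Itgb6, against 1.47%. The Tes stretch held none of the 3 motifs. A match is a description of these letters only.

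To ask what loss of Bmal1 in beige fat did to these genes, bBMKO was first compared with bBMCtr at ambient temperature. In edgeR's quasi-likelihood test across all 15413 genes, passing required more than a 1.5-fold difference, an unadjusted p below 0.05 and an adjusted p (Benjamini-Hochberg) below 0.25. Of the 42 members 1 was higher in bBMKO and 6 were lower, against 3.88% higher and 4.75% lower among all genes tested. The member that rose was Itga7, and those that fell were Itga2, Itga9, Cd44 and the leukocyte integrins Itgal, Itgax and Itgb7. In the cold 4 members were higher and 13 lower, against 9.67% and 13.1% of all genes. The higher ones were Itga7, talin-2 (Tln2), Fermt2 and Parva, and the lower ones were 6 of the 7 leukocyte integrins, both leukocyte adaptors, Itga2, Itga2b, Itga8, Tes and Cd44. The median log2 fold change of the 42 members was -0.12 at ambient temperature and -0.05 in the cold, beside -0.01 and 0.05 over all genes. Both comparisons use different mice and share no library.

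**Figure D2:**
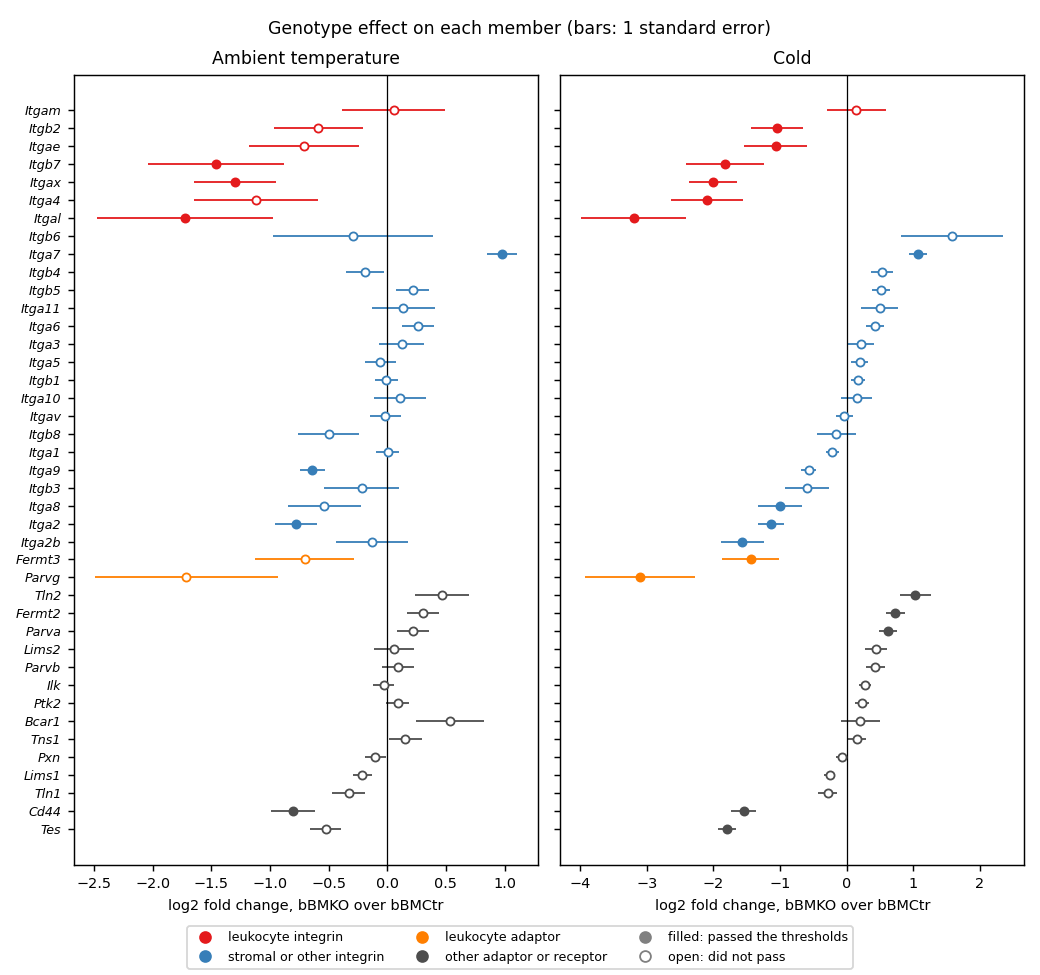
Log2 fold change of bBMKO over bBMCtr for 41 members at ambient temperature (left) and in the cold (right), with bars of 1 standard error; filled points passed the thresholds and Fermt1, at 0 in cold bBMKO, is left out. Leukocyte integrins (red) lie left of 0 in the cold except Itgam at 0.15, and Itga7 lies right of 0 in both panels, at 0.98 and 1.07.

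Among the leukocyte integrins, the α chain of LFA-1, Itgal (mm10 chr7:127296260-127335137, plus strand), binds ICAMs when T cells meet other cells. In the cold it had 13.4, 19.4 and 11.9 CPM in bBMKO, against 125, 185 and 99.5 CPM in bBMCtr. No cold bBMKO library came near a cold bBMCtr library, and the log2 fold change was -3.20 ± 0.79 (SE, n = 3 each; edgeR adjusted p = 0.0144). At ambient temperature Itgal had 12.1, 11.7 and 49.8 CPM in bBMKO, against 156, 71.5 and 16.4 CPM in bBMCtr. Here the groups overlapped: replicate 3 of bBMKO was the high one of its group and replicate 3 of bBMCtr the low one of its group (log2 fold change -1.73 ± 0.75, edgeR adjusted p = 0.218).

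The same 2 ambient libraries stood apart in the gut- and tissue-homing chains. Itga4, the α chain of VLA-4, had 31.7, 35.7 and 25.3 CPM in cold bBMKO, against 122, 177 and 98.8 CPM in cold bBMCtr (log2 fold change -2.10 ± 0.54, edgeR adjusted p = 0.0166). At ambient temperature it had 25.1, 41.2 and 60.0 CPM in bBMKO, against 168, 78.0 and 28.9 CPM in bBMCtr, which did not pass (-1.12 ± 0.53, edgeR adjusted p = 0.251). Itgb7, its partner in gut homing, had 23.2, 32.2 and 20.6 CPM in cold bBMKO, against 83.1, 109 and 76.7 CPM in cold bBMCtr (-1.83 ± 0.58, edgeR adjusted p = 0.0348). At ambient temperature Itgb7 had 13.9, 13.9 and 35.7 CPM in bBMKO, against 105, 54.1 and 15.9 CPM in bBMCtr (-1.46 ± 0.58, edgeR adjusted p = 0.187). Both pairs of groups were apart in the cold and overlapped at ambient temperature. The ambient calls of Itgal and Itgb7 were lost with limma and when any of 4 libraries was left out, and without replicate 1 of bBMCtr the log2 fold changes were -0.86 and -0.74.

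Itgae, the α chain that binds E-cadherin on intraepithelial lymphocytes, had 8.53, 10.8 and 8.54 CPM in cold bBMKO, against 21.4, 17.7 and 19.3 CPM in cold bBMCtr (-1.07 ± 0.47, edgeR adjusted p = 0.101). At ambient temperature it had 6.41, 6.47 and 13.6 CPM in bBMKO, against 24.6, 13.7 and 5.12 CPM in bBMCtr, and did not pass. Its call in the cold was lost when any 1 library of that comparison was left out. Itgax, the CD11c chain of dendritic cells and some macrophages, had 8.12, 5.74 and 4.0 CPM in cold bBMKO, against 22.1, 29.8 and 20.1 CPM in cold bBMCtr (-2.01 ± 0.36, edgeR adjusted p = 0.00396). At ambient temperature Itgax had 6.56, 4.99 and 10.6 CPM in bBMKO, against 22.6, 20.3 and 11.6 CPM in bBMCtr (-1.30 ± 0.35, edgeR adjusted p = 0.0707). Itgax was the leukocyte integrin whose groups were apart at both temperatures.

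Itgb2, the β chain common to Itgal, Itgam and Itgax, had 63.8, 65.5 and 49.8 CPM in cold bBMKO, against 110, 163 and 95.8 CPM in cold bBMCtr (-1.04 ± 0.39, edgeR adjusted p = 0.0585). At ambient temperature it had 38.1, 98.6 and 60.7 CPM in bBMKO, against 149, 89.2 and 58.7 CPM in bBMCtr, which overlapped and did not pass. Itgam, the CD11b chain of macrophages and neutrophils, was the exception among the 7: it had 99.0, 88.8 and 81.9 CPM in cold bBMKO, against 74.7, 104 and 64.8 CPM in cold bBMCtr, and passed in none of the 6 comparisons. At ambient temperature Itgam had 60.1, 208 and 56.0 CPM in bBMKO, against 134, 83.8 and 93.8 CPM in bBMCtr. Replicate 2 of ambient bBMKO was the highest of the 12 libraries for Itgam. It was also the highest in the mean log2 CPM of 16 macrophage or myeloid markers, with 7.45 against 6.22 to 7.00 in the other libraries.

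The leukocyte adaptors ran alongside. Parvg, the parvin of blood cells, had 4.09, 3.62 and 3.38 CPM in cold bBMKO, against 30.8, 38.4 and 26.1 CPM in cold bBMCtr (-3.10 ± 0.83, edgeR adjusted p = 0.0187). At ambient temperature Parvg had 3.46, 3.31 and 13.8 CPM in bBMKO, against 45.3, 19.1 and 3.12 CPM in bBMCtr, and did not pass (edgeR adjusted p = 0.24). Fermt3, the kindlin that activates leukocyte and platelet integrins, had 26.4, 29.4 and 25.5 CPM in cold bBMKO, against 67.4, 96.6 and 57.0 CPM in cold bBMCtr (-1.44 ± 0.43, edgeR adjusted p = 0.027). At ambient temperature Fermt3 had 20.7, 52.7 and 35.6 CPM in bBMKO, against 96.8, 52.3 and 28.6 CPM in bBMCtr, and did not pass. For both adaptors the cold groups were apart and the ambient groups overlapped.

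Lymphocyte markers were lower in cold bBMKO, as were 6 of the 7 leukocyte integrins and both leukocyte adaptors. In the cold all 16 were lower in bBMKO, their summed level being 22.2 to 62.8 CPM in bBMKO and 924 to 1530 CPM in bBMCtr; at ambient temperature both groups overlapped for every marker, with sums of 31.6 to 491 CPM in bBMKO and 32.4 to 1750 CPM in bBMCtr. Within ambient bBMKO, Itgb2, Fermt3 and Itgam were highest in replicate 2 (98.6, 52.7 and 208 CPM), where the lymphocyte marker mean was 1.48 log2 CPM. That mean was highest in replicate 3, at 4.76, as were Itgal, Itga4, Itgae, Itgax, Itgb7 and Parvg. Of the 16 macrophage or myeloid markers 2 were higher in bBMKO in the cold comparison and the other 14 did not pass. With the lymphocyte marker mean as a covariate, 1 of the 7 leukocyte integrins passed as lower in the cold, Itgax (-0.99 ± 0.33, edgeR adjusted p = 0.154). The 7 had a median log2 fold change of -0.23, beside -1.83 without the covariate. Under it Itgal was at -0.43 ± 0.49 (edgeR adjusted p = 0.7) and Parvg at -0.01 ± 0.34 (edgeR adjusted p = 0.992). In the cold the marker mean did not overlap between genotypes, at 0.18 to 1.80 in bBMKO and 5.64 to 6.36 in bBMCtr. A cold fit with this covariate, here or below, therefore cannot part genotype from lymphocyte content. In bulk tissue fewer leukocytes and less RNA per leukocyte cannot be told apart, and whether lymph node tissue was included was not tested.

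**Figure D3:**
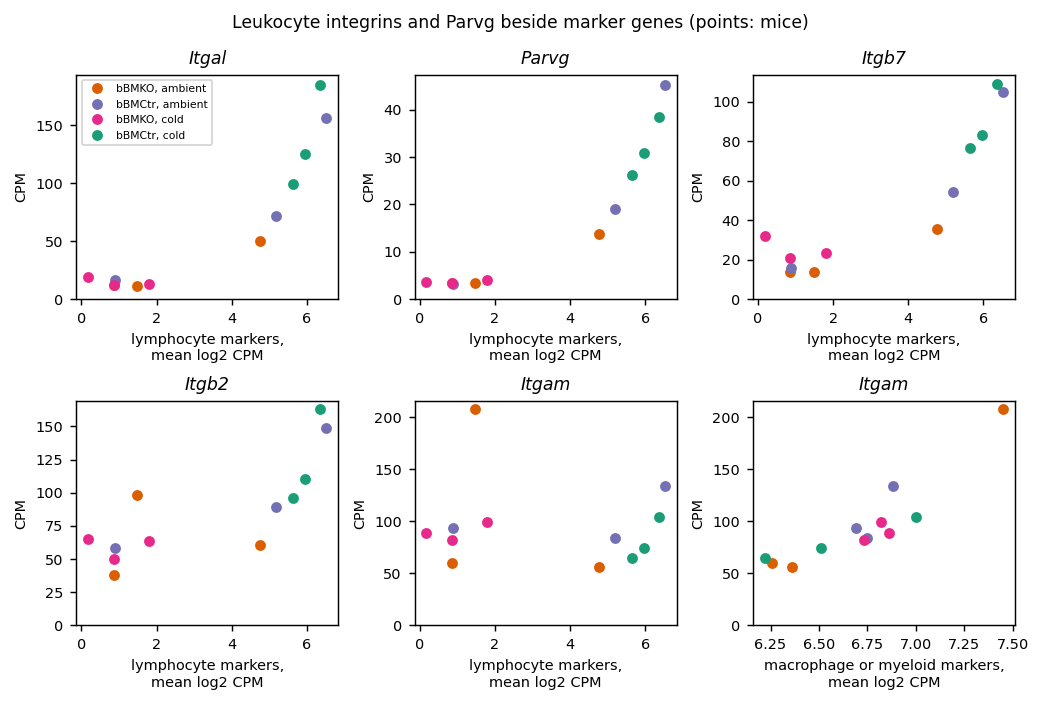
CPM of Itgal, Parvg, Itgb7, Itgb2 and Itgam in each library against the mean log2 CPM of lymphocyte markers, and of Itgam against macrophage or myeloid markers; each point is a mouse. Itgal and Parvg are highest in bBMCtr libraries rich in lymphocyte markers. In bBMKO the highest lymphocyte marker mean, 4.76 in ambient replicate 3, goes with 49.8 CPM of Itgal and 13.8 CPM of Parvg. The highest Itgam value, 208 CPM, lies in a library with a lymphocyte marker mean of 1.48 and a myeloid marker mean of 7.45.

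Among the stromal or other integrins, the collagen receptor chain Itga2 (mm10 chr13:114835912-114932041, minus strand) was lower in bBMKO at both temperatures. It had 4.32, 3.87 and 5.21 CPM in ambient bBMKO, against 7.25, 7.05 and 8.72 CPM in ambient bBMCtr (-0.78 ± 0.18, edgeR adjusted p = 0.0394). In the cold Itga2 had 2.10, 1.95 and 1.44 CPM in bBMKO, against 4.43, 3.94 and 3.73 CPM in bBMCtr (-1.14 ± 0.19, edgeR adjusted p = 0.00287). The groups were apart at both temperatures. Itga2 also passed in the fits with the lymphocyte covariate (-0.78 at ambient temperature and -1.15 in the cold), within the limit given above for the cold. Itga9 (mm10 chr9:118606709-118901003, plus strand), a receptor chain for tenascin-C, VCAM-1 and the fibronectin EDA segment, had 24.8, 28.5 and 29.0 CPM in ambient bBMKO, against 49.3, 41.3 and 37.5 CPM in ambient bBMCtr (-0.64 ± 0.11, edgeR adjusted p = 0.0138). In the cold it had 26.6, 29.1 and 23.7 CPM in bBMKO, against 40.8, 38.7 and 38.3 CPM in bBMCtr, and its log2 fold change of -0.57 ± 0.11 (edgeR adjusted p = 0.00653) missed the 1.5-fold minimum. With the lymphocyte covariate Itga9 was at -0.54 at ambient temperature and no longer passed. The study had picked Itga2, Tes and Cd44 for a heat map of matrix genes and Itga9 for another of MRTF/SRF targets, both from this experiment, and their direction is not independent of that choice.

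Itga7 (mm10 chr10:128933813-128958284, plus strand), the laminin receptor chain best known from skeletal muscle, was the integrin that rose in bBMKO at both temperatures. It had 181, 176 and 184 CPM in ambient bBMKO, against 78.1, 96.3 and 100 CPM in ambient bBMCtr (0.98 ± 0.13, edgeR adjusted p = 0.00418). In the cold it had 356, 438 and 452 CPM in bBMKO, against 214, 166 and 213 CPM in bBMCtr (1.07 ± 0.13, edgeR adjusted p = 0.000736). All 4 groups were apart except that ambient bBMKO overlapped cold bBMCtr. Skeletal muscle markers were present in every library and varied within groups: in ambient bBMKO their mean log2 CPM was 6.80, 6.34 and 2.31, while Itga7 kept to 176 to 184 CPM. With the muscle marker mean as a covariate the effect was 0.99 at ambient temperature and 1.0 in the cold. Fat cell markers averaged 10.51 to 10.90 log2 CPM in ambient bBMKO, 9.91 to 10.47 in ambient bBMCtr, 11.22 to 11.37 in cold bBMKO and 10.73 to 11.02 in cold bBMCtr. The part of muscle and of fat cells in the Itga7 difference was not tested.

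A pair of further integrin chains passed between genotypes in the cold and not at ambient temperature, and for neither did the interaction pass in edgeR. Itga2b, the platelet fibrinogen receptor chain, had 5.96, 4.42 and 4.99 CPM in cold bBMKO, against 18.9, 12.8 and 13.8 CPM in cold bBMCtr (-1.56 ± 0.32, edgeR adjusted p = 0.00703). At ambient temperature it had 10.2, 19.1 and 13.5 CPM in bBMKO, against 23.3, 11.5 and 12.1 CPM in bBMCtr, with overlap, and the interaction was -1.43 ± 0.44 (edgeR adjusted p = 0.485). DESeq2 called this interaction (-1.45, DESeq2 adjusted p = 0.124), and edgeR did without replicate 1 of ambient bBMCtr (-1.84, edgeR adjusted p = 0.0697). The mean log2 CPM of 8 other platelet markers was -0.70 to -0.28 in cold bBMKO and -0.66 to -0.59 in cold bBMCtr. Only 4 of the 8 passed the filter on low values, so this mean lies near the floor. Their summed level was 53.5 to 55.1 CPM in cold bBMKO and 33.2 to 43.6 CPM in cold bBMCtr. The part of platelets in the Itga2b difference was not tested. Itga8, whose αβ1 dimer binds nephronectin, had 2.39, 1.95 and 1.78 CPM in cold bBMKO, against 4.38, 2.72 and 5.18 CPM in cold bBMCtr (-1.0 ± 0.33, edgeR adjusted p = 0.0407; interaction -0.46 ± 0.45), and the call was lost without replicate 3 of cold bBMCtr (-0.80). At ambient temperature Itga8 had 12.4, 8.96 and 11.3 CPM in bBMKO, against 11.1, 12.5 and 23.8 CPM in bBMCtr, which overlapped.

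Itgb1 (mm10 chr8:128685654-128733579, plus strand) differed by less than the thresholds everywhere. It had 474, 529 and 465 CPM in ambient bBMKO, against 445, 478 and 554 CPM in ambient bBMCtr (-0.01 ± 0.10). In the cold it had 497, 561 and 507 CPM in bBMKO, against 447, 473 and 472 CPM in bBMCtr (0.17 ± 0.10, edgeR adjusted p = 0.199). The collagen receptor chain Itga1 (0.00 and -0.21), the fibronectin receptor chain Itga5 (-0.06 and 0.20) and the vitronectin receptor chain Itgav (-0.02 and -0.04) likewise lay close to 0 on the log2 scale at ambient temperature and in the cold. Itga6, Itgb4 and Itgb5, chains of laminin and vitronectin receptors, were at 0.43, 0.53 and 0.52 in the cold, with edgeR adjusted p of 0.0396, 0.03 and 0.022, short of the 1.5-fold minimum. Of the 18 stromal or other integrins 1 was higher and 2 lower at ambient temperature, against 3.88% and 4.75% of all genes. In the cold 1 was higher and 3 lower, against 9.67% and 13.1%, and the medians of -0.04 and 0.16 stand beside -0.01 and 0.05 over all genes.

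Of the adaptors, Tes (testin, a LIM protein of focal adhesions and stress fibres; mm10 chr6:17065149-17105825, plus strand) had the smallest p among the members in the cold. It had 8.35, 9.47 and 8.16 CPM in cold bBMKO, against 28.6, 34.9 and 26.7 CPM in cold bBMCtr (-1.79 ± 0.13, edgeR adjusted p = 4.53e-05). At ambient temperature it had 29.9, 28.6 and 34.6 CPM in bBMKO, against 50.8, 42.7 and 40.6 CPM in bBMCtr; the groups were apart, but the log2 fold change of -0.53 ± 0.13 (edgeR adjusted p = 0.0468) was short of 1.5-fold. The genotype effect differed between temperatures, with an interaction of -1.27 ± 0.18 (edgeR adjusted p = 0.0338). Tes was the 1 member to pass the interaction test, in the negative direction, against 0.597% of all genes in that direction and 0.169% in the positive one. Another 4 members had an unadjusted p under 0.05 for the interaction, Itga2b (-1.43) and Cd44 (-0.74) in the negative and Itgb4 (0.72) and Ilk (0.31) in the positive direction. DESeq2 called 3 members, Itgb4 in the positive and Tes and Itga2b in the negative direction. The shares of all genes at these 2 settings were not counted. Because the cold libraries carry Y-linked transcripts and the ambient ones Xist, an interaction with temperature cannot be told apart from one with sex. If the stated ages hold, the same is true of an interaction with age.

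Cd44 (mm10 chr2:102811142-102901665, minus strand), the hyaluronan receptor of leukocytes and mesenchymal cells, had 52.7, 52.7 and 55.8 CPM in ambient bBMKO, against 114, 90.2 and 77.5 CPM in ambient bBMCtr (-0.80 ± 0.19, edgeR adjusted p = 0.0439). In the cold it had 31.8, 32.4 and 24.2 CPM in bBMKO, against 84.2, 108 and 65.9 CPM in bBMCtr (-1.55 ± 0.19, edgeR adjusted p = 0.000792). No bBMKO library reached the lowest bBMCtr library of its temperature. With the lymphocyte covariate Tes in the cold was at -1.53 ± 0.17 (edgeR adjusted p = 0.00271) and Cd44 at -1.18 ± 0.26 (edgeR adjusted p = 0.0478). Both passed in that fit, which cannot part genotype from lymphocyte content in the cold.

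**Figure D4:**
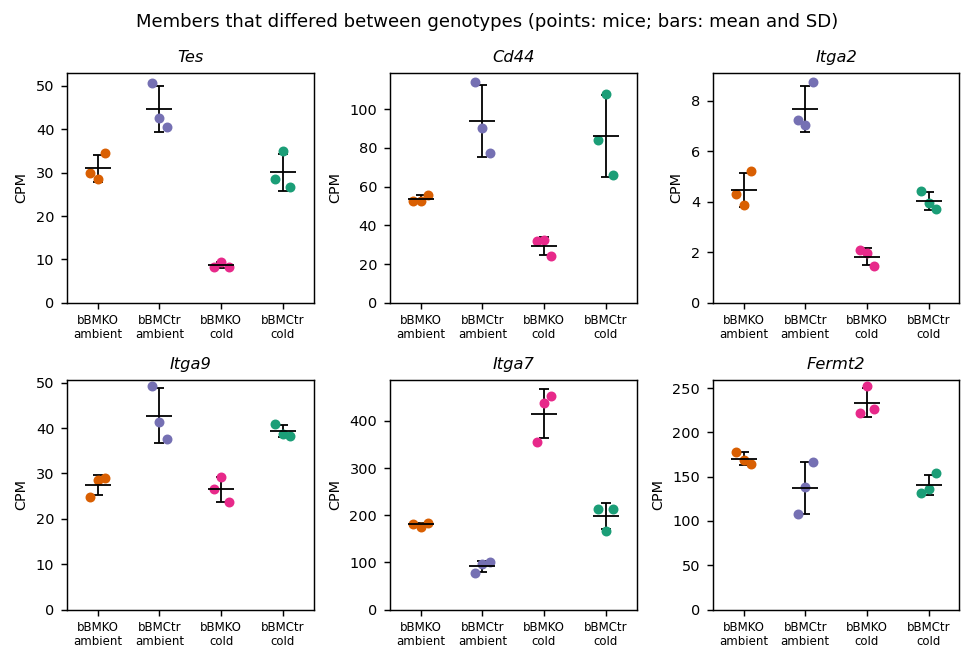
CPM of Tes, Cd44, Itga2, Itga9, Itga7 and Fermt2 in the 4 groups; points are mice and bars the mean with SD of 3. Tes lies at 8.16 to 9.47 CPM in cold bBMKO, below each other group, and Itga7 at 356 to 452 CPM in cold bBMKO, above each other group.

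Of the 15 other adaptors, 3 were higher in cold bBMKO and 2, Tes and Cd44, lower, against 9.67% and 13.1% of all genes. Tln2, the talin enriched in muscle and heart, had 189, 298 and 214 CPM in cold bBMKO, against 110, 100 and 133 CPM in cold bBMCtr (1.03 ± 0.23, edgeR adjusted p = 0.0105). Fermt2 had 222, 252 and 227 CPM in cold bBMKO, against 132, 136 and 154 CPM in cold bBMCtr (0.73 ± 0.14, edgeR adjusted p = 0.00499). Parva, α-parvin, had 266, 295 and 269 CPM in cold bBMKO, against 184, 163 and 193 CPM in cold bBMCtr (0.62 ± 0.14, edgeR adjusted p = 0.01). The groups of the 3 higher genes were apart in the cold, as were those of 32 of the 42 members.

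At ambient temperature none of the 3 passed. Tln2 had 131, 117 and 134 CPM in ambient bBMKO, against 59.8, 104 and 113 CPM in ambient bBMCtr. Fermt2 had 178, 169 and 164 CPM in ambient bBMKO, against 108, 138 and 167 CPM in ambient bBMCtr, and Parva 245, 236 and 238 CPM against 159, 210 and 249 CPM. With library size alone, which moves the median of all genes in the cold comparison to -0.17, Fermt2 (0.52) and Parva (0.41) no longer passed, while Itga9 (-0.78) and Itgb3 (-0.81) did, so that 2 members were higher and 15 lower in place of 4 and 13. For the skeletal muscle markers, the mean over 14 genes was 7.29, 8.78 and 7.34 log2 CPM in cold bBMKO, against 2.97, 4.96 and 7.79 in cold bBMCtr. With the muscle covariate Tln2 still passed (0.80), while Fermt2 (0.57) and Parva (0.48) fell short of 1.5-fold, and with the lymphocyte covariate none of the 3 passed (0.57, 0.34 and 0.26).

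Apart from Parva and Parvg, the genes of the kinase, PINCH and parvin complex did not reach the 1.5-fold minimum between genotypes. Ilk was at -0.03 at ambient temperature and 0.28 in the cold, Lims1 (PINCH-1) at -0.21 and -0.26, Lims2 (PINCH-2) at 0.06 and 0.44, and Parvb at 0.09 and 0.43. In the cold these 4 genes had edgeR adjusted p of 0.0309, 0.0365, 0.0647 and 0.0333. Their groups were apart there, as were those of 32 of the 42 members. The share of all genes with groups apart was not counted. Tln1, the ubiquitous talin, was at -0.33 and -0.28, paxillin (Pxn) at -0.10 and -0.07, and focal adhesion kinase (Ptk2) at 0.09 and 0.23, and none of them passed. Over both temperatures together, the mean genotype effect passed for 2 members upward (Itga7 and Tln2) and 14 downward, against 6.38% and 11.5% of all genes. Those 14 comprised 6 leukocyte integrins, both leukocyte adaptors, Itga2, Itga2b, Itga8, Itga9, Tes and Cd44.

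Cold was then compared with ambient temperature within each genotype. The ambient libraries also differ in sex and hold mammary epithelium, as given below, and may differ in age. In bBMKO 4 members were higher in the cold and 12 lower, against 6.41% and 12.4% of all genes. In bBMCtr 3 were higher and 10 lower, against 3.48% and 11.3%. For the 7 leukocyte integrins the unadjusted p of edgeR was 0.357 or above in bBMKO and 0.265 or above in bBMCtr, and none passed there or in DESeq2. Without replicate 1 of ambient bBMCtr, however, Itga4 (1.30), Itgae (1.04) and Itgb7 (1.35) passed as higher in cold bBMCtr (edgeR adjusted p = 0.0852, 0.129 and 0.124). Among the 18 stromal or other integrins 1 was higher and 8 lower in bBMKO and 2 higher and 9 lower in bBMCtr, with medians of -0.47 and -0.65.

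Integrin chains found on epithelium were among those that fell. Itga3, a laminin receptor chain, had 12.8, 11.3 and 10.0 CPM in cold bBMKO, against 41.5, 58.5 and 46.4 CPM in ambient bBMKO (-2.10 ± 0.20, edgeR adjusted p = 5.4e-05). In bBMCtr Itga3 had 8.60, 10.0 and 10.9 CPM in the cold, against 35.9, 40.5 and 58.1 CPM at ambient temperature (-2.18 ± 0.20, edgeR adjusted p = 5.62e-05). Itgb8, which activates latent TGF-β, had 1.34, 1.26 and 0.943 CPM in cold bBMKO, against 3.92, 4.38 and 3.97 CPM in ambient bBMKO (-1.78 ± 0.28, edgeR adjusted p = 0.00141). In neither gene did cold and ambient libraries overlap.

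In bBMCtr Itgb8 had 1.11, 1.45 and 1.39 CPM in the cold, against 3.99, 5.02 and 8.35 CPM at ambient temperature (-2.13 ± 0.28, edgeR adjusted p = 0.000542). Itgb4, the hemidesmosome chain, had 30.4, 31.4 and 29.7 CPM in cold bBMCtr, against 51.6, 65.5 and 78.6 CPM in ambient bBMCtr (-1.10 ± 0.16, edgeR adjusted p = 0.0013). In bBMKO it had 45.7, 52.1 and 34.6 CPM in the cold, against 55.8, 60.1 and 55.8 CPM at ambient temperature, and did not pass (-0.38 ± 0.16, edgeR adjusted p = 0.118). The interaction for Itgb4 was 0.72 ± 0.23 and did not pass in edgeR (adjusted p = 0.513). It passed in DESeq2 (0.71, DESeq2 adjusted p = 0.237) and in edgeR without replicate 1 of ambient bBMCtr (0.85, edgeR adjusted p = 0.0951). Itgb6, a chain of epithelial cells, had 0.151, 0.235 and 1.49 CPM in cold bBMCtr, against 1.63, 2.85 and 5.71 CPM in ambient bBMCtr (-2.45 ± 0.76, edgeR adjusted p = 0.0578). In bBMKO Itgb6 had 0.876, 2.93 and 1.78 CPM in the cold, against 3.15, 2.65 and 2.49 CPM at ambient temperature, which overlapped and did not pass.

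Kindlin-1, Fermt1, an epithelial kindlin, had no read in the 3 cold bBMKO libraries, against 9.97, 10.2 and 9.55 CPM in ambient bBMKO. At a floor of 3 counts per library, a mean of 0.171 CPM in cold bBMKO, it was at least 57.9-fold lower in the cold. In bBMCtr it had 0, 0 and 0.213 CPM in the cold (4 counts in all), against 7.74, 11.4 and 18.7 CPM at ambient temperature. Both comparisons passed (edgeR adjusted p = 0.000228 and 0.000294). Mammary epithelium markers were also lower in the cold, 15 of 16 in bBMKO and 16 of 16 in bBMCtr. Itga3, Itgb8 and Fermt1 fell with them in both genotypes, whereas Itgb4 and Itgb6 passed in bBMCtr alone and in bBMKO were at -0.38 and -0.57 (edgeR adjusted p = 0.118 and 0.587). The summed level of that list was 42.1 to 63.6 CPM in cold bBMKO and 1470 to 1730 CPM in ambient bBMKO, and 22.4 to 36.4 CPM in cold bBMCtr and 1090 to 2170 CPM in ambient bBMCtr, with up to 6 of its 16 genes at 0 in a cold library and none at ambient temperature. The part of that tissue in the fall of these integrins was not tested, and temperature, sex and gland cannot be told apart. If the ages stated in the sources hold, age cannot be told apart from them either.

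**Figure D5:**
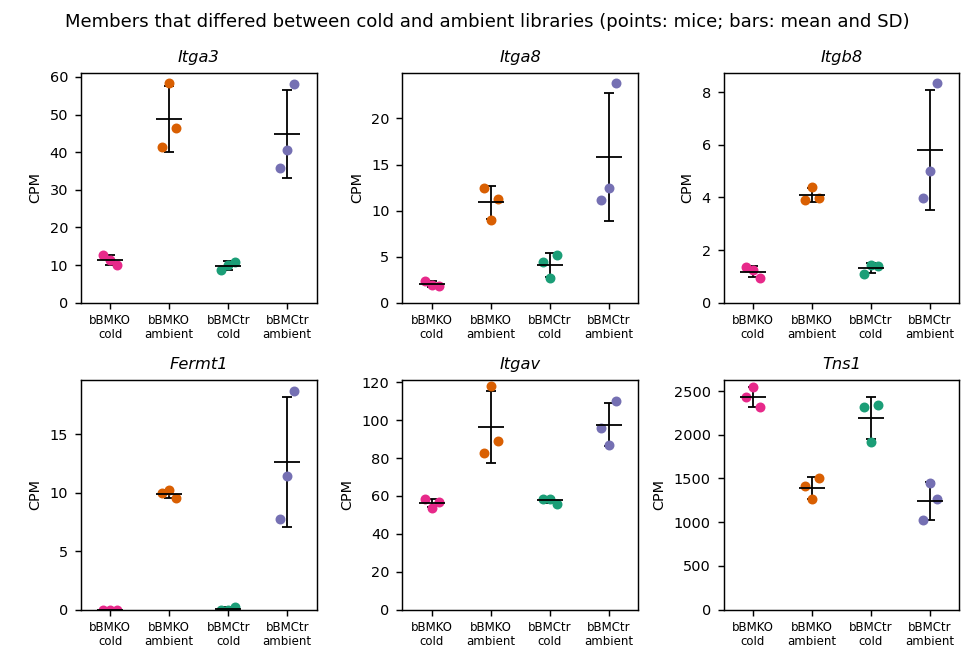
CPM of Itga3, Itga8, Itgb8, Fermt1, Itgav and Tns1 in cold and ambient libraries of bBMKO (left pair) and bBMCtr (right pair); points are mice and bars the mean with SD of 3. Itga3 lies at 8.60 to 12.8 CPM in the 6 cold libraries and at 35.9 to 58.5 CPM in the 6 ambient ones, Fermt1 is at or near 0 in the cold, and Tns1 is higher in the cold in both genotypes.

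Of the integrin chains of mesenchymal and vascular cells, Itgav and Itgb3 fell as well, while others did not pass. In bBMKO and bBMCtr Itga5 was at -0.11 and -0.37, Itgb1 at 0.09 and -0.09, and Itgb5 at -0.06 and -0.36. Itgav had 58.2, 53.7 and 56.8 CPM in cold bBMKO, against 82.5, 118 and 89.1 CPM in ambient bBMKO (-0.78 ± 0.13, edgeR adjusted p = 0.00187). In bBMCtr it had 58.5, 58.6 and 56.0 CPM in the cold, against 96.0, 87.1 and 110 CPM at ambient temperature (-0.76 ± 0.13, edgeR adjusted p = 0.00252). The 6 cold libraries thus spanned 53.7 to 58.6 CPM. Itgb3, the partner of Itgav and of Itga2b, had 16.2, 17.2 and 18.4 CPM in cold bBMKO, against 28.4, 68.3 and 27.6 CPM in ambient bBMKO (-1.26 ± 0.33, edgeR adjusted p = 0.0205). In bBMCtr Itgb3 had 25.8, 29.0 and 23.5 CPM in the cold, against 62.8, 35.2 and 46.6 CPM at ambient temperature (-0.88 ± 0.33, edgeR adjusted p = 0.104). Both pairs were apart.

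The level of Itga8 given above for the 4 groups was lower in the cold, at -2.41 ± 0.34 in bBMKO (edgeR adjusted p = 0.000667) and -1.95 ± 0.32 in bBMCtr (edgeR adjusted p = 0.00221). The collagen receptor chains split. Itga2 was lower in the cold, at -1.29 ± 0.19 in bBMKO and -0.93 ± 0.18 in bBMCtr (edgeR adjusted p = 0.000905 and 0.00571). Itga10, best known from cartilage, had 2.86, 3.85 and 3.61 CPM in cold bBMKO, against 4.58, 5.4 and 6.83 CPM in ambient bBMKO (-0.70 ± 0.23, edgeR adjusted p = 0.0457). In bBMCtr it had 3.57, 3.10 and 2.61 CPM in the cold, against 3.94, 6.37 and 5.28 CPM at ambient temperature (-0.75 ± 0.23, edgeR adjusted p = 0.0521). Itga11, expressed by fibroblasts, was at -0.19 in bBMKO and -0.55 in bBMCtr and did not pass.

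Itga1 went the other way. It had 79.8, 78.6 and 82.9 CPM in cold bBMCtr, against 53.8, 53.0 and 51.3 CPM in ambient bBMCtr (0.61 ± 0.10, edgeR adjusted p = 0.00235). In bBMKO it had 67.5, 75.0 and 65.6 CPM in the cold, against 57.2, 43.6 and 57.4 CPM at ambient temperature, short of 1.5-fold (0.40 ± 0.10, edgeR adjusted p = 0.0182). Pelo lies within Itga1 on the same strand, and how reads of the pair were assigned is not given in the sources used here. Itga7, whose per-library values stand above, was higher in the cold, at 1.20 ± 0.13 in bBMKO and 1.11 ± 0.13 in bBMCtr (edgeR adjusted p = 0.000147 and 0.00031).

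Among the adaptors, Tns1 was higher in the cold in both genotypes. It had 2430, 2550 and 2320 CPM in cold bBMKO, against 1410, 1260 and 1500 CPM in ambient bBMKO (0.81 ± 0.15, edgeR adjusted p = 0.00301). In bBMCtr Tns1 had 2320, 1920 and 2340 CPM in the cold, against 1020, 1450 and 1260 CPM at ambient temperature (0.82 ± 0.15, edgeR adjusted p = 0.00351). Lims2 had 101, 130 and 114 CPM in cold bBMKO, against 64.5, 65.1 and 70.6 CPM in ambient bBMKO (0.78 ± 0.17, edgeR adjusted p = 0.00823). In bBMCtr it had 81.7, 72.4 and 99.9 CPM in the cold, against 48.2, 75.3 and 68.7 CPM at ambient temperature, which overlapped and did not pass.

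Tln2 was higher in cold bBMKO than in ambient bBMKO (0.88 ± 0.23, edgeR adjusted p = 0.0218), and at 0.31 in bBMCtr did not pass. Bcar1, which encodes p130Cas, had 41.3, 43.2 and 37.6 CPM in cold bBMKO, against 91.3, 80.3 and 41.8 CPM in ambient bBMKO (-0.81 ± 0.29, edgeR adjusted p = 0.0681). This call was lost without replicate 1 (-0.58) or 2 (-0.73) of ambient bBMKO or replicate 3 of cold bBMKO (-0.75). In bBMCtr Bcar1 had 36.6, 35.8 and 33.5 CPM in the cold, against 30.4, 55.6 and 61.6 CPM at ambient temperature, and did not pass. Tes was lower in the cold in bBMKO (-1.84 ± 0.13, edgeR adjusted p = 9.11e-06) and at -0.57 ± 0.13 in bBMCtr (edgeR adjusted p = 0.0119) was short of 1.5-fold. Cd44 was lower in the cold in bBMKO (-0.87 ± 0.19, edgeR adjusted p = 0.00912) and at -0.13 in bBMCtr did not pass, with an interaction of -0.74 ± 0.27 (edgeR adjusted p = 0.553). Itga2b was lower in the cold in bBMKO (-1.48 ± 0.32, edgeR adjusted p = 0.00816) and at -0.04 in bBMCtr did not pass.

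Of the 42 members 30 passed in at least 1 comparison and 12 in none. The share of all genes that passed in at least 1 comparison was not counted, so these counts do not set the members apart from other genes. The 12 were Itga5, Itga6, Itga11, Itgam, Itgb1, Itgb5, Tln1, Ilk, Parvb, Lims1, Pxn and Ptk2. Among them, Ilk ran from 118 to 157 CPM over the 12 libraries and Ptk2 from 57.4 to 79.6 CPM. Pxn was lower in the cold, at -0.42 in bBMKO and -0.46 in bBMCtr (edgeR adjusted p = 0.00723 and 0.0059), below the 1.5-fold minimum.

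Matrix and cell-surface ligands of these integrins were followed as a list of 31 genes. In bBMKO 6 were higher and 5 lower than in bBMCtr at ambient temperature, against 3.88% higher and 4.75% lower among all genes, with a median log2 fold change of 0.09 beside -0.01 over all genes. In the cold 11 were higher and 5 lower, against 9.67% and 13.1%, with a median of 0.38 beside 0.05. The collagens Col6a1 and Col1a1 rose: Col6a1 had 1030, 1080 and 1060 CPM in cold bBMKO, against 452, 425 and 415 CPM in cold bBMCtr (1.29 ± 0.12, edgeR adjusted p = 0.000159). Npnt, nephronectin, the ligand of the Itga8 dimer, had 63.4, 32.3 and 42.4 CPM in cold bBMKO, against 3.52, 3.19 and 5.76 CPM in cold bBMCtr (3.47 ± 0.35, edgeR adjusted p = 0.000267). Npnt was also higher at ambient temperature (1.49 ± 0.33, edgeR adjusted p = 0.0337), while Itga8 was at -0.54 there and lower in the cold.

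Other ligands fell. Tnc, tenascin-C, a ligand of the Itga9 dimer, had 9.23, 11.3 and 8.77 CPM in cold bBMKO, against 42.2, 35.3 and 39.0 CPM in cold bBMCtr (-1.99 ± 0.28, edgeR adjusted p = 0.00147). Vcam1, bound by the Itga4 and Itga9 dimers, had 23.8, 26.2 and 23.2 CPM in cold bBMKO, against 113, 114 and 116 CPM in cold bBMCtr (-2.23 ± 0.43, edgeR adjusted p = 0.00558). Icam1, the ligand of LFA-1, had 26.8, 28.2 and 23.6 CPM in cold bBMKO, against 65.8, 76.5 and 51.6 CPM in cold bBMCtr (-1.30 ± 0.32, edgeR adjusted p = 0.0139). At ambient temperature Vcam1 had 22.5, 21.5 and 59.2 CPM in bBMKO, against 117, 74.6 and 41 CPM in bBMCtr (-1.17 ± 0.41, edgeR adjusted p = 0.147). Icam1 had 23.2, 30.8 and 40.7 CPM in ambient bBMKO, against 81.6, 55.3 and 30.6 CPM in ambient bBMCtr (-0.82 ± 0.31, edgeR adjusted p = 0.175). Both passed with overlapping groups, replicate 3 being the highest of bBMKO and the lowest of bBMCtr, as in the lymphocyte markers. Mfge8, a ligand of Itgav dimers, was lower in the cold comparison (-0.91 ± 0.13, edgeR adjusted p = 0.00125). It too is in the study's heat map of matrix genes. Vcam1 and Icam1, which are made by lymph node stroma as well as by vessels, were picked after their values were seen.

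In bBMKO 2 ligands were higher and 7 lower in the cold than at ambient temperature, against 6.41% and 12.4% of all genes. In bBMCtr 11 were lower, against 11.3% of all genes. Cdh1, E-cadherin, the ligand of the Itgae dimer, had 1.61, 2.77 and 2.51 CPM in cold bBMCtr, against 77.9, 139 and 179 CPM in ambient bBMCtr (-5.84 ± 0.43, edgeR adjusted p = 1.47e-05), and it fell with the mammary markers. Thbs1, thrombospondin-1, had 17.9, 22.1 and 19.7 CPM in cold bBMCtr, against 149, 130 and 133 CPM in ambient bBMCtr (-2.79 ± 0.22, edgeR adjusted p = 2.18e-05).

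Of 44 further focal adhesion genes, 2 passed at ambient temperature, both lower in bBMKO, against 4.75% lower among all genes. In the cold 1 was higher and 8 lower, against 9.67% and 13.1%. The medians were -0.15 and -0.14, beside -0.01 and 0.05 over all genes. Actn1, the α-actinin that crosslinks actin at adhesions, had 50, 53.9 and 52 CPM in cold bBMKO, against 112, 134 and 108 CPM in cold bBMCtr (-1.18 ± 0.12, edgeR adjusted p = 0.000329). Pak1, a kinase downstream of Rac, had 8.70, 11.5 and 9.16 CPM in cold bBMKO, against 18.1, 20 and 17.5 CPM in cold bBMCtr (-0.92 ± 0.15, edgeR adjusted p = 0.00268). Both passed the interaction test as well, Pak1 at -1.24 ± 0.21 (edgeR adjusted p = 0.0623) and Actn1 at -0.75 ± 0.17 (edgeR adjusted p = 0.2), as Tes did among the members. The 1 gene that rose was Itgb1bp1, a brake on Itgb1 activation (0.64 ± 0.08, edgeR adjusted p = 0.000969). Of the other 6 that fell, Elmo1 (-1.31), Apbb1ip (-1.15), Ptk2b (-0.97) and Lpxn (-1.36) are known chiefly from leukocytes. The lymphocyte markers were lower in that comparison as well. Within ambient bBMKO, Elmo1, Ptk2b and Lpxn were highest in replicate 3 (34.7, 88.8 and 12.5 CPM), with a lymphocyte marker mean of 4.76 log2 CPM. Apbb1ip had 54.7 CPM there and was highest in replicate 2 (76.8 CPM). In replicate 2 the lymphocyte marker mean was 1.48 and the macrophage or myeloid marker mean 7.45. The part of leukocytes in these differences was not tested.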

How the data were processed

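RNA from iWAT of 12 mice was sequenced (51-cycle single reads, mRNA libraries). Alignment to mm10 by the authors used STAR, and HTSeq-count with GENCODE gave the deposited gene counts from uniquely mapped reads. Tool versions, the release and the strand setting: not given in the sources used here. The deposited log2 values are log2(FPKM + 0.1), made by the authors; FPKM here are these values turned back. Genes with FPKM over 0.1 in at least 50% of libraries were kept (15413 of 24091). With TMM scaling, edgeR 4.0.16 under R 4.3.3 (glmQLFit, glmQLFTest) was fitted to the counts of all libraries, 1 term per group; CPM use the TMM library size. TMM factors ran from 0.8702 to 1.132. The cut-offs (1.5-fold, p under 0.05, adjusted p under 0.25) are those of the study, which used DESeq2. The p-values rest on the spread between mice within groups, 3 mice a group, and each gene has 1 estimate of it shared by all 4 groups. A p-value of the cold comparison thus also carries the ambient spread. The SE is the size of the log2 fold change divided by the square root of the F of the test.

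The members, the lists and the markers were chosen with earlier results of these data known. Per-library values are given for members that passed in any comparison and for Itgb1, Itga9, Itga2, Tes and Cd44, and list genes by smallest p among those that passed; Npnt, Col1a1, Tnc, Vcam1, Icam1 and Cdh1 also as ligands of members described, chosen after their values were seen. Replicate numbers did not pair libraries (correlations of deviations -0.7 to 0.45), so no block was used. Alternatives were DESeq2 1.42.0, library size alone, no filter, limma 3.58.1 on the log2 values, a replicate block, an adjusted p under 0.05, the compared groups alone, marker covariates and each library left out. On simulated data for the ambient genotype comparison (15413 genes), 37.3% of 1.5-fold, 76.1% of 2-fold and 97% of 4-fold changes were recovered with 35 false calls among 15213 unchanged genes. A 1.5-fold change is the passing minimum itself. Changed genes were drawn only from those with more reads, so the recovery does not cover members such as Itgb6. Counts were drawn independently for each gene, without the shifts of cell type markers seen between libraries, so the false calls cover no such shift. Reads shared by overlapping genes (Itga1 with Pelo, Itgal with Zfp553, Ilk with Rrp8 and Taf10) may be split or lost.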

Additional observations from a re-analysis of the deposited data

Results flagged for a closer look

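The genotype effect on Tes differed between temperatures by the test of the difference itself: bBMKO against bBMCtr was -1.79 on the log2 scale in the cold and -0.53 at ambient temperature, an interaction of -1.27 ± 0.18 (edgeR adjusted p = 0.0338). All 3 cold bBMKO libraries (8.35, 9.47 and 8.16 CPM) were below the other 9. The interaction passed under every alternative run, and temperature cannot be told apart in it from sex or, if the stated ages hold, from age.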

How the results depend on the processing

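Of the 70 calls of members over the 6 comparisons, 38 kept their direction and their side of the threshold under every alternative: 3 of 7 for genotype at ambient temperature (Cd44, Itga2 and Itga7), 6 of 17 for genotype in the cold (Cd44, Itga2, Itga2b, Itga7, Itgax and Tes), 14 of 16 for cold in bBMKO, 9 of 13 for cold in bBMCtr, 1 of 1 for the interaction and 5 of 16 for the mean genotype effect. Marker covariates were fitted for the genotype comparisons only, so the calls for cold and for the interaction met fewer alternatives. The ambient count of 7 became 12 with library size alone and 4 at an adjusted p under 0.05, and ran from 4 to 13 with 1 library left out (13 without bBMCtr replicate 3, 12 without bBMKO replicate 3, 4 without bBMKO replicate 1). The cold count of 17 became 8 with the lymphocyte covariate, of which 7 were among the 17, and 15 to 18 with 1 library left out. In the cold that covariate did not overlap between genotypes, so its fit cannot part genotype from lymphocyte content. The count for the mean effect, 16, became 7 with that covariate and 14 to 17 by library. The interaction count of 1 became 3 with DESeq2 and 1 to 10 by library, 10 without ambient bBMCtr replicate 1. Counts for cold ran from 15 to 16 in bBMKO and from 12 to 18 in bBMCtr by library. The cause was not tested.

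With the replicate block, 5 members passed for genotype at ambient temperature and 17 in the cold, 16 of the 17 being shared; the block moved no count by more than 1.5 times. With the lymphocyte covariate the sign turned for Itgae (0.03 at ambient temperature, 0.59 in the cold, 0.31 for the mean), Itgb7 in the cold (0.27), Bcar1 in the cold (-0.70) and the mean effect on Itgb6 (-0.19). Bcar1 in the cold was also -0.01 with library size alone and -0.19 with the muscle covariate. Itgam at ambient temperature, 0.06 and not passed, was -0.07 with library size alone, -0.27 with limma, -0.13 with the block, -0.02 with the mammary covariate, and ran from -0.81 without bBMKO replicate 2 to 0.37 without bBMKO replicate 3, with -0.06 and -0.00 without bBMCtr replicates 2 and 3. Without ambient bBMKO replicate 2, Itgam was at 0.61 for cold in bBMKO. By library, Itgb3 at ambient temperature ran from -0.76 without bBMKO replicate 2 to 0.01 without bBMKO replicate 3, and the interaction of Itga11 from -0.08 without ambient bBMCtr replicate 2 to 0.64 without ambient bBMCtr replicate 1. Itgb2 in the cold was lost without bBMCtr replicate 2 (-0.81) or bBMKO replicate 3 (-0.93), and Itga9 at ambient temperature without bBMCtr replicate 1 (-0.54) or bBMKO replicate 1 (-0.57). Depth limits members with few reads, such as Itgb6 and Fermt1.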
